A study of Homo sapiens with 2 samples.

Results

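PSAT1, WARS1, SARS1 and AARS1 are genes of amino acid supply that the transcription factor ATF4 is known to induce, and they are described here by their levels on 2 arrays. Their members were found by gene symbol in the platform's table of probes and genes, which gave 5 transcript clusters for the 4 genes, out of 53617 clusters on the array. A transcript cluster is the set of probes that reads 1 transcribed region. The genes were chosen by their measured log2 difference between these arrays, which earlier results had shown to be negative, so their differences are given as a description, and no test is made on them.

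The cells were MDA-MB-231, an established human breast cancer line, on both arrays. The antagomir group received a miR-544 antagomir, an oligonucleotide that binds and blocks the microRNA, and the compound 1 group received compound 1. Each agent was given 24 hours ahead of 5 days at less than 1% oxygen. Every culture was hypoxic, and no untreated or normoxic array was used here. Each group is 1 array of pooled RNA, and the series speaks of 3 pooled samples without saying how they fall into the groups, so no value has a replicate error. The arrays' medians were 5.59 for the antagomir and 5.62 for compound 1 on the deposited scale, which its range places as log2 signal. The log base is not stated, and each fold assumes base 2.

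Cells sense a shortage of amino acids through kinases that phosphorylate the initiation factor eIF2. General translation then slows, while the ATF4 message is translated more. ATF4 pairs with C/EBP proteins on a composite DNA element and induces genes for amino acid synthesis, import and the charging of tRNA. Aminoacyl-tRNA synthetases join each amino acid to its tRNA; WARS1 does this for tryptophan, SARS1 for serine and AARS1 for alanine. PSAT1 is the aminotransferase of serine synthesis, the pathway that branches from glycolysis through PHGDH and ends with PSPH. In tumour cells the pathway also feeds glycine and the folate cycle.

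The agents are directed at miR-544. The mature forms of this name in RefSeq (GRCh38.p14) are shown because they are what the treatments address, with the seed, bases 2 to 8, in capitals; the labels do not say which form is meant, and the seeds differ. Mature miR-544a lies on the plus strand at chr14:101048712-101048733, within the MIR544A hairpin, and mature miR-544b on the plus strand at chr3:124732486-124732507, within the MIR544B hairpin.
hsa-miR-544a: aUUCUGCAuuuuuagcaaguuc
hsa-miR-544b: aCCUGAGGuugugcauuucuaa

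The promoters of the 4 genes are shown because all of them were lower on the same array and all are named as ATF4 targets. Each run is the 250 bases before an annotated RefSeq start (GRCh38.p14), read in the direction of the gene. Capitals mark motif letters found in that window. For PSAT1 the window is chr9:78296875-78297124 on the plus strand, for AARS1 chr16:70289507-70289756 on the minus strand and for SARS1 chr1:109213643-109213892 on the plus strand. WARS1 has separate annotated starts, with windows at chr14:100376328-100376577 and chr14:100375348-100375597 on the minus strand. SARS1 also has a start 25 bases downstream, whose overlapping window held the same result and is not printed.
PSAT1: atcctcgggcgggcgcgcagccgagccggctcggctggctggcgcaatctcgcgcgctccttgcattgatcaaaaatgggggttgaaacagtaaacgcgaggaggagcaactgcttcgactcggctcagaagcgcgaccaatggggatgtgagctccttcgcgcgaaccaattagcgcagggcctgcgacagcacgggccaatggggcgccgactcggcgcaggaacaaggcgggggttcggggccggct
AARS1: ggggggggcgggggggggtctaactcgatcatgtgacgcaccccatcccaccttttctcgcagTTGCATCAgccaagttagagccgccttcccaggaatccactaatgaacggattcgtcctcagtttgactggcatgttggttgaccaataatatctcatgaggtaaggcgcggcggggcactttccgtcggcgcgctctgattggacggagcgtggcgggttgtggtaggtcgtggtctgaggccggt
SARS1: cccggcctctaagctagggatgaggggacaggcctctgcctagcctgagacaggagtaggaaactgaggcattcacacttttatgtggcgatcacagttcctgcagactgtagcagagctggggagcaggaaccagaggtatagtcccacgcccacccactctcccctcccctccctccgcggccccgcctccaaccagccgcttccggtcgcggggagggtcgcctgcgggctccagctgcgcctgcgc
WARS1, upstream start: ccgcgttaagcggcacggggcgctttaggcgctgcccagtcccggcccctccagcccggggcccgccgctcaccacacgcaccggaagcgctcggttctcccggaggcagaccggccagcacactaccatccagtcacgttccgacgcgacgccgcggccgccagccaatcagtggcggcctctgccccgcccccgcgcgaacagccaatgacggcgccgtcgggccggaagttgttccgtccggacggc
WARS1, downstream start: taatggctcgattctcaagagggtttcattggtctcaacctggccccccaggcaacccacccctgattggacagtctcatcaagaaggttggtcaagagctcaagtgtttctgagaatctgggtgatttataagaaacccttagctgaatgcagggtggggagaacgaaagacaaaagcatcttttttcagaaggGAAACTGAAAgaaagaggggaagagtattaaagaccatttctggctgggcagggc

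The C/EBP-ATF response element was searched as TGATGNAA on both strands, over 300 bases from 250 before to 50 after each start. Among the 4 genes it was found in AARS1 alone, on the opposite strand, where TTGCATCA begins 187 bases before the start. PSAT1, SARS1 and both windows of WARS1 held no match, which says only that these letters are not in these windows. With TGATGCAA as the motif the AARS1 match was again the only one, also when 1 letter was allowed to differ, a search that 18.0% of all genes with a promoter met. The letters TGACGTCA and TGACGCAA, forms of the cyclic AMP response element, were in none of the windows, against 2.25% and 0.648% of genes.

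The element was found in 7 of the 16 cytosolic synthetases with a promoter in the table: AARS1, CARS1, GARS1, IARS1, MARS1, NARS1 and TARS1. In all but AARS1 it began between 33 bases before and 14 bases after the start. Over all 27305 genes with a promoter the share was 4.46%, and over the 8356 measured ones 2.58%. All 7 genes had lower values on the compound 1 array, as did 57.2% of measured genes. AARS1 was chosen for being lower, as were WARS1 and SARS1, whose windows had no match. Of the other measured synthetases with a promoter and no match, EPRS1, HARS1, KARS1, QARS1 and RARS1 were lower as deposited. After quantile normalization or cyclic loess of the arrays HARS1, QARS1 and RARS1 turned above 0, and the 7 stayed below it. Whether the element has a part in the differences was not tested.

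The downstream start of WARS1 carries other letters. The interferon-stimulated response element, searched on both strands as GAAANNGAAA after the sequences had been seen, was found 55 bases before that start as GAAACTGAAA. WARS1 is known to be induced by interferon. The motif was in 1 of 16 synthetases, in 10 of 13 listed interferon response genes with a promoter, and in 4.38% of all genes. No match overlapped a C/EBP-ATF response element in the windows of the 4 genes.

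**Figure D1:**
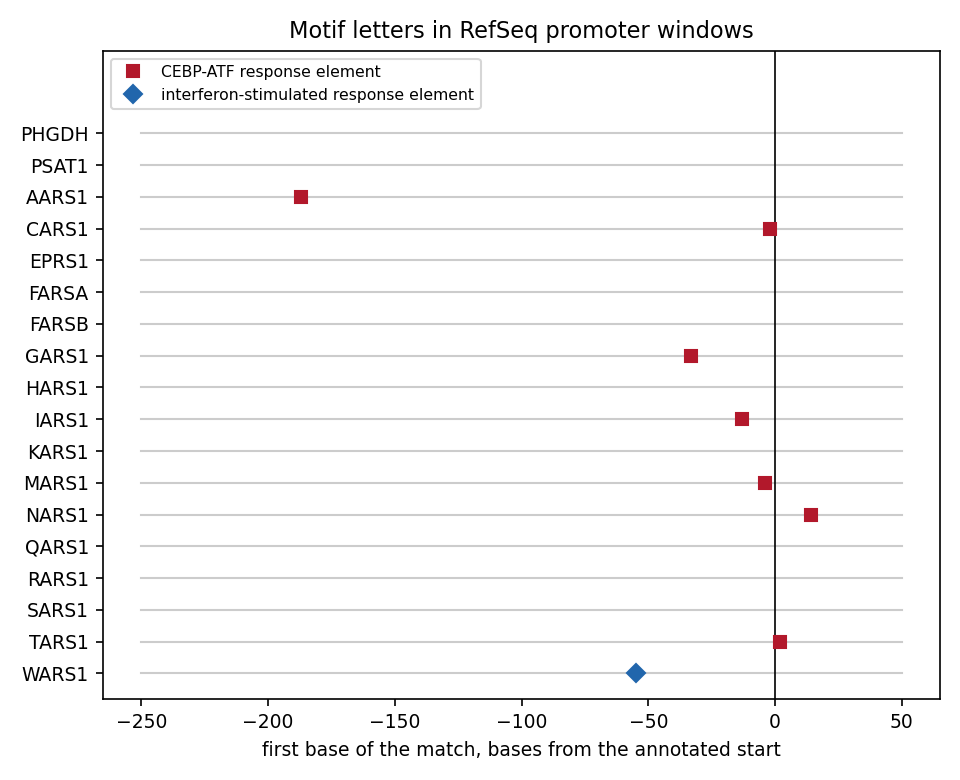
Position of motif letters in RefSeq promoter windows of serine synthesis and cytosolic synthetase genes; the x axis is the distance of the first base of a match from the annotated start, in bases, and grey lines are the windows searched, with the windows of 1 gene drawn on 1 line. Squares, the C/EBP-ATF response element, lie near the start except in AARS1 (187 bases before it), and the diamond, the interferon-stimulated response element, lies in WARS1 only.

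All 4 genes were lower on the compound 1 array than on the antagomir array, with 77.4% to 83.1% of the antagomir signal left. PSAT1, which makes phosphoserine from phosphohydroxypyruvate with glutamate as the amino donor, was at 10.65 with the antagomir and 10.28 with compound 1 on the log2 scale. The log2 difference, compound 1 minus antagomir, was -0.37, so that the compound 1 signal was 77.4% of the antagomir signal. This was the largest difference among the 4 genes as deposited.

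WARS1, the tryptophanyl-tRNA synthetase, was at log2 levels of 8.12 with the antagomir and 7.76 with compound 1. Its log2 difference of -0.37 left 77.5% of the antagomir signal and was within 0.0023 of that of PSAT1. SARS1, the seryl-tRNA synthetase, which uses the product of the serine pathway and also charges the selenocysteine tRNA with serine, was at 10.90 and 10.59 (log2 difference -0.31, 80.5% of the antagomir signal). AARS1, the alanyl-tRNA synthetase, was at 10.22 and 9.95 (log2 difference -0.27, 83.1%). The antagomir array was thus the higher in each of the 4 pairs of values, and the gap between PSAT1 and AARS1 was 0.10 on the log2 scale.

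**Figure D2:**
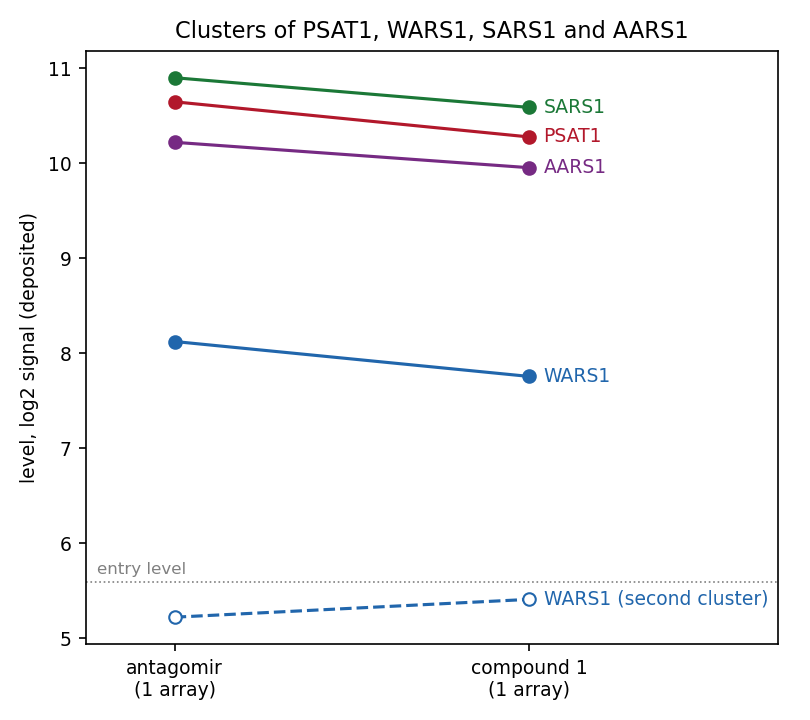
Deposited log2 signal (y axis) of the 5 clusters of PSAT1, WARS1, SARS1 and AARS1 for the antagomir and for compound 1 (x axis), 1 array each, with no error bars since no replicate exists. Filled points are clusters above the entry level of 5.60; the open points are the second WARS1 cluster, which lies under it and runs the other way. Levels of different clusters are not comparable with each other.

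WARS1 was the only gene of the 4 with another cluster, and its clusters disagree. The second cluster was at 5.22 with the antagomir and 5.41 with compound 1, a log2 difference of 0.19 in the opposite direction. It stayed below the entry level of 5.60, the median of the mean levels of all clusters, on both arrays. Cluster numbers largely run by chromosome and strand: among the 10 named clusters on either side that lie on the same chromosome and have 1 strand in RefSeq, all 12 neighbours of the PSAT1 cluster and all 17 of the SARS1 cluster are plus-strand genes like them, and all 14 of the AARS1 cluster are minus-strand genes like it. WARS1 lies on the minus strand. Of 10 neighbours of its second cluster, 9 are genes of the plus strand and 1 of the minus strand. Of 15 such neighbours of the main cluster, 13 are on the minus strand and 2 on the plus strand. By this numbering the second cluster sits among probes of the strand opposite to WARS1; which transcript it reads was not tested. Among 173 genes with 1 entering and 1 dim cluster and 2 non-zero differences, the signs were opposite in 83 (48.0%), so a disagreement of this kind was common on these arrays.

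Among measured genes, those whose higher value reached the entry level, the 4 stood in the lower tail of differences. Of 10887 such genes, 3.45% had a lower difference than PSAT1, 3.57% than WARS1, 5.84% than SARS1 and 9.11% than AARS1. All 4 were at least 1.2-fold lower, a size that 9.48% of measured genes reached in that direction and 6.2% in the other. Since the genes were picked for being lower, nothing is read from that count. No gene of the 4 reached 1.5-fold, which 0.551% of measured genes did in the lower direction. Next to PSAT1 in the order of differences stood WDR27 and ANAPC16, and next to AARS1 stood OXR1 and PRICKLE4, so at these sizes the order mixes genes of many kinds.

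The level of a gene bears on how its difference reads. The median difference ran from 0.074 in the lowest decile of measured genes by mean level to -0.079 in the highest, and the 4 genes sit in the upper range. Among the 544 genes in the level bin that holds PSAT1 and SARS1, the median was -0.071 with a robust SD of 0.10, and 4 genes, PSAT1 included, were at or below its difference. For SARS1 that number was 17. In the bin of WARS1 the median was -0.086 with a robust SD of 0.13, and 18 of 544 genes were at or below it. In the bin of AARS1 the median was -0.088, and 43 of 544 genes were at or below it. Relative to these medians the log2 differences were -0.30 for PSAT1, -0.28 for WARS1, -0.24 for SARS1 and -0.18 for AARS1. What part the level trend has in them was not tested.

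**Figure D3:**
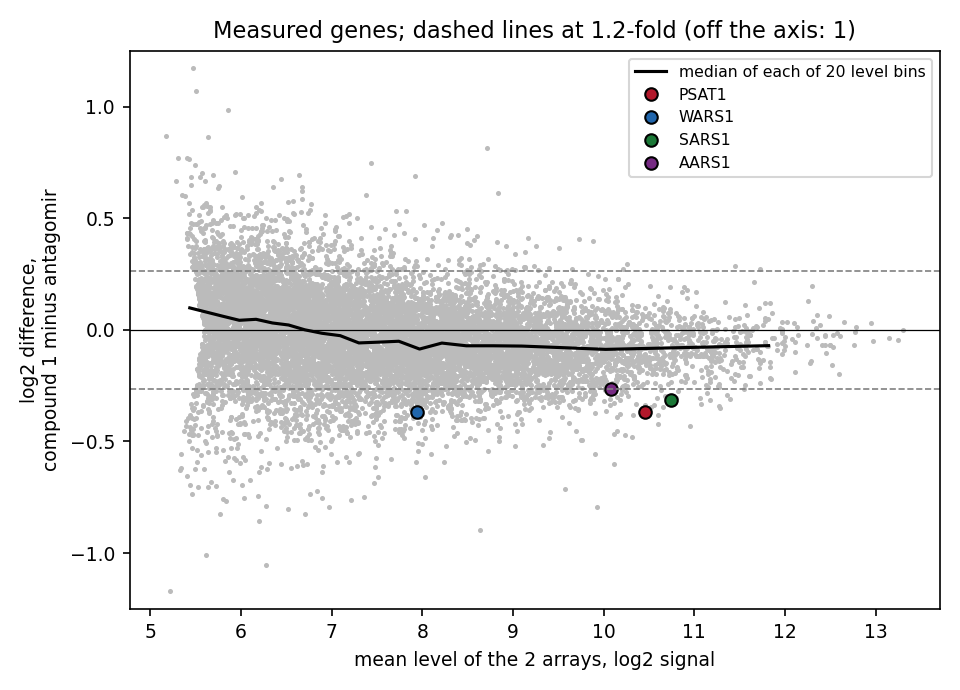
Log2 difference, compound 1 minus antagomir (y axis), against the mean log2 level of both arrays (x axis) for measured genes, 1 grey point each; 1 gene lies off the axis. The black line joins the medians of 20 level bins and drops below 0 as level rises; the 4 coloured genes lie below it, at or under the dashed line for 1.2-fold lower.

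Scaling changed the sizes but no direction. After quantile normalization of the arrays the log2 differences were -0.30 for PSAT1, -0.31 for WARS1, -0.25 for SARS1 and -0.19 for AARS1. After cyclic loess they were -0.30, -0.32, -0.24 and -0.19. PSAT1 and WARS1 stayed past 1.2-fold under both, and SARS1 and AARS1 did not. WARS1, and no longer PSAT1, had the largest difference of the 4 after either.

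The other enzymes of serine synthesis were lower too, by less than 1.2-fold. PHGDH, the dehydrogenase that opens the pathway, was at log2 levels of 6.29 with the antagomir and 6.12 with compound 1 (log2 difference -0.17). PSPH, the phosphatase that releases serine, was at 8.33 and 8.11 (log2 difference -0.22). The level bin of PHGDH had a median of 0.047 with a robust SD of 0.19, and that of PSPH -0.059 with 0.16. All 3 enzymes of the pathway were therefore lower on the compound 1 array, where 57.2% of measured genes were lower. PSAT1, the only enzyme of the pathway past 1.2-fold, was chosen for being lower. Without it the count rests on PHGDH and PSPH. MDA-MB-231 is widely used as a line with little PHGDH.

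Downstream of serine, 9 of 17 listed enzymes of glycine and folate metabolism were measured. Of these 7 were lower and 2 higher (5 lower after quantile normalization, 6 after cyclic loess), with a median of -0.059 against -0.035 over all measured genes. SHMT1, the cytosolic hydroxymethyltransferase that turns serine into glycine, was the only gene past 1.2-fold, at 8.08 and 7.81 (log2 difference -0.27). Under quantile normalization or cyclic loess it no longer passed. Its mitochondrial counterpart SHMT2 was at -0.099, and MTHFD1L, a mitochondrial formate-producing enzyme, at -0.24. Of the others, 2 were under the entry level, and 6 had no named cluster.

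Among cytosolic tRNA synthetases, 18 of 21 were measured and 17 of these were lower, where 57.2% of all measured genes were. Their median was -0.20 against -0.035 over all measured genes, and 7 passed 1.2-fold in the lower direction (0 in the higher), a size that 9.48% of measured genes reached, WARS1, SARS1 and AARS1 among them. Leaving out these 3, which were chosen for being lower, 14 of 15 were lower with a median of -0.19, and 4 passed. Many synthetases are as bright as SARS1 and AARS1. In the level bins of SARS1 and AARS1, 76.5% and 75.9% of genes were lower, with medians of -0.071 and -0.088, so the share over all genes overstates the contrast. LARS1, which charges leucine, had a log2 level of 10.30 with the antagomir and a log2 difference of -0.30. TARS1, for threonine, was at 10.41 and 10.12 (log2 difference -0.30). YARS1, for tyrosine, was at 8.78 and 8.48 (log2 difference -0.30).

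MARS1, for methionine, completed the group past 1.2-fold at 9.79 and 9.52 (log2 difference -0.27). The synthetases nearest to 0 were those for histidine (HARS1, -0.027), arginine (RARS1, -0.047), glutamine (QARS1, -0.066) and valine (VARS1, -0.067), and TARS3, a paralog of TARS1, was higher by 0.033 (-0.014 after cyclic loess). VARS1 has another entering cluster, at 9.34 and 9.36, with a log2 difference of 0.028, so its clusters disagree in sign. After quantile normalization 13 of the 18 were lower and 1, WARS1, passed 1.2-fold. After cyclic loess 14 were lower and again WARS1 alone passed. HARS1, RARS1, QARS1 and VARS1 turned above 0 under both scalings.

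**Figure D4:**
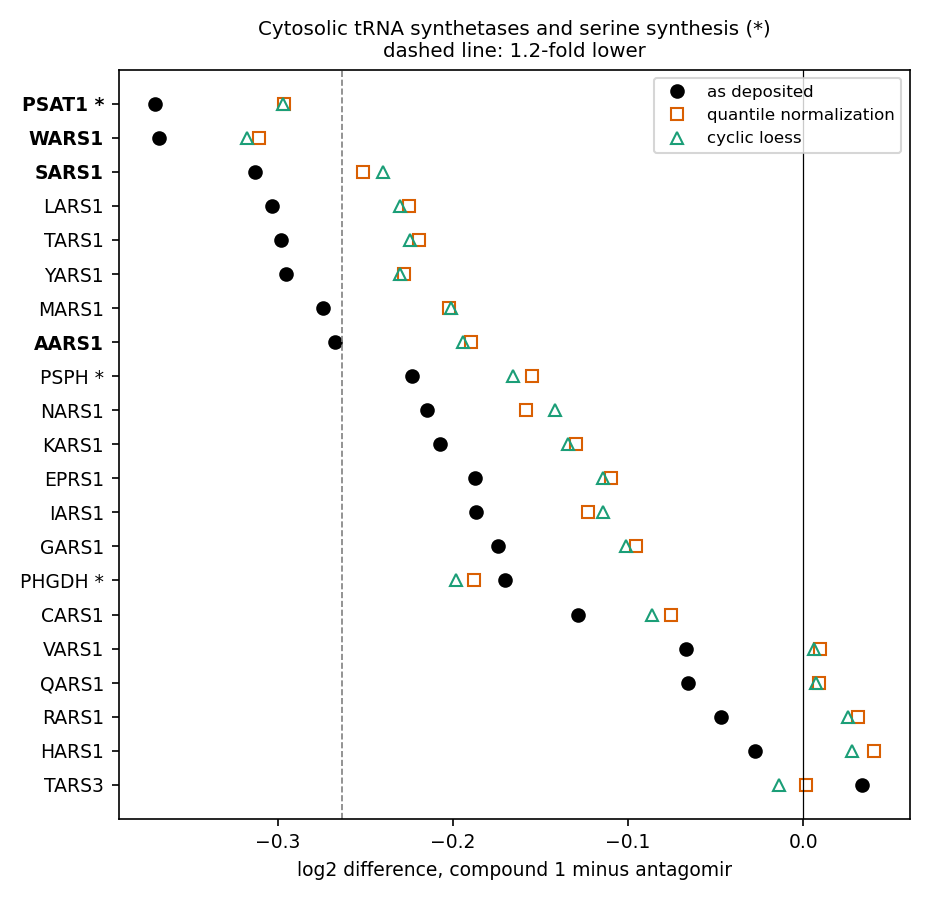
Log2 difference, compound 1 minus antagomir (x axis), of 18 cytosolic tRNA synthetases and 3 serine synthesis enzymes (asterisk), as deposited (filled) and after quantile normalization or cyclic loess (open); bold names are the 4 genes described. Most open symbols lie nearer to 0 than the filled ones, and PSAT1 and WARS1 alone stay left of the dashed line at 1.2-fold lower under every scaling drawn.

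The synthetases can be divided into those usually named as ATF4 targets and the others. This division, from general knowledge of the response, was made with earlier results known, and the first set holds WARS1, SARS1 and AARS1, which were chosen for being lower. All 13 named as targets were measured and lower (12 after quantile normalization or cyclic loess), with a median of -0.27. Over all measured genes 57.2% were lower, with a median of -0.035. In the level bins of SARS1 and AARS1 the shares were 76.5% and 75.9%. Without these 3 members the other 10 had a median of -0.20, or -0.14 with quantile normalization and -0.13 with cyclic loess, where 9 of 10 were lower. Of the 8 others 5 were measured: 4 were lower, the median was -0.047, and 0 passed 1.2-fold, with KARS1, for lysine, lowest at -0.21. The median of these 5 was 0.0092 after quantile normalization, with 1 lower, and 0.0072 after cyclic loess, with 2 lower. The difference between the sets has no test, because each treatment has 1 array.

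The structural classes, which differ in the fold of the catalytic domain, had medians of -0.19 in class I (9 of 9 lower, 6 after quantile normalization or cyclic loess, WARS1 included) and -0.21 in class II (7 of 8 lower, 6 after quantile normalization, SARS1 and AARS1 included). EPRS1, which joins a domain of each class, was left out of these and was at -0.19. Of the 8 synthetases of the multisynthetase complex, to which none of WARS1, SARS1 and AARS1 belongs, 7 were measured, all were lower (5 after quantile normalization or cyclic loess), and the median was -0.19. Beside these counts, 57.2% of all measured genes were lower, 48.8% after quantile normalization and 50.8% after cyclic loess. In the level bins of SARS1 and AARS1, 76.5% and 75.9% were lower as deposited. AIMP1, a scaffold protein of the complex, was at -0.16. The 17 mitochondrial synthetases and 9 amino acid transporters listed had no named cluster and were not analysed here.

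For each of the 4, the listed genes closest in difference were found as a description. Closeness was the absolute gap in log2 difference over the 2 arrays, among 46 other measured genes of the serine, folate, synthetase and ATF4 target lists, many of them synthetases. Over all measured genes no synthetase stood next to any of the 4 in the order of differences. For SARS1 the nearest were LARS1 (gap 0.0097), TARS1 (0.015) and YARS1 (0.017). For AARS1 they were SHMT1 (0.0017), MARS1 (0.0066) and YARS1 (0.028). PSAT1 and WARS1 were each other's nearest, followed for both by SARS1 and LARS1.

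Other targets of ATF4 lay on both sides of 0, near the share over all genes. Of 26 listed genes 17 were measured, 10 lower and 7 higher (8 and 9 after quantile normalization or cyclic loess), with a median of -0.068 (0.0056 and 0.0033 after these scalings). As a share 58.8% were lower, beside 57.2% of all measured genes. ASNS, the asparagine synthetase and a standard readout of the response, was at 7.60 with the antagomir and 7.45 with compound 1 (log2 difference -0.14). The cysteine synthesis enzyme CTH was at -0.13, the proline synthesis enzyme PYCR1 at -0.068 and the pseudokinase TRIB3 at -0.0069, the last 2 turning above 0 after quantile normalization or cyclic loess. DDIT3, the stress transcription factor also called CHOP, was at -0.071.

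Past 1.2-fold in the lower direction were DDIT4, an inhibitor of mTOR complex 1 (-0.79), and the growth factor gene VEGFA (-0.47). Both are also known to be induced in hypoxia. In the higher direction stood the secreted cytokine genes GDF15 (0.81) and FGF21 (0.37) and the stress transcription factor ATF3 (0.29, and just under 1.2-fold after centring). The 5 genes past 1.2-fold thus lay on both sides, 2 lower and 3 higher, also after quantile normalization or cyclic loess. Of the higher genes, FGF21 (5.73 with the antagomir, 6.10 with compound 1) and ATF3 (6.05 and 6.35) had low levels. Medians in their level bins were 0.043 and 0.047, each with a robust SD of 0.19. A stricter entry level of 7.10 dropped both, and 2 lower genes and 1 higher gene, GDF15, remained past 1.2-fold. Over all measured genes 9.48% were at least 1.2-fold lower and 6.2% at least 1.2-fold higher.

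**Figure D5:**
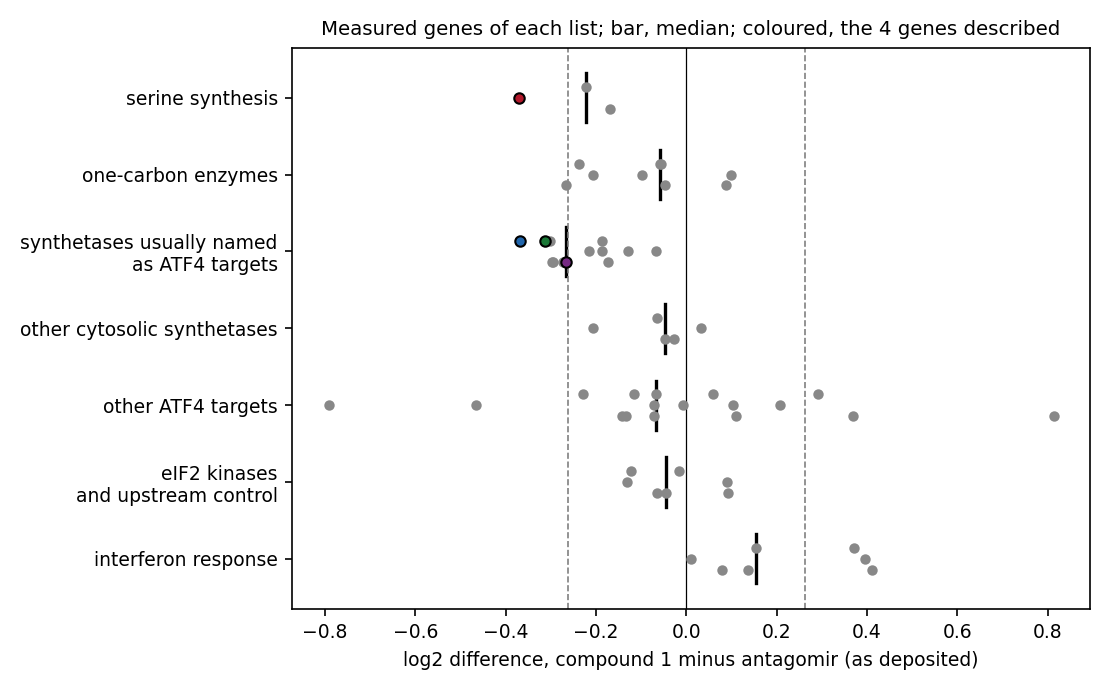
Log2 difference, compound 1 minus antagomir, as deposited (x axis), for the measured genes of 7 lists (rows), 1 point per gene; black bars are medians, dashed lines 1.2-fold, and coloured points PSAT1, WARS1, SARS1 and AARS1. Synthetases usually named as ATF4 targets all lie below 0 (12 of 13 after quantile normalization or cyclic loess), as do 57.2% of all measured genes. The median of these synthetases is -0.27, or -0.20 without WARS1, SARS1 and AARS1, which were chosen for being lower. Other ATF4 targets spread to both sides. Measured interferon response genes all lie above 0 (6 of 7 after centring), where MX2 entered through the compound 1 array alone.

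Upstream of these genes, differences were small. ATF4 itself was at 8.95 with the antagomir and 8.83 with compound 1 (log2 difference -0.12); its activity is set largely by translation, which these arrays do not measure. Of the eIF2 kinases, EIF2AK4, also called GCN2, which senses uncharged tRNA, was higher by 0.093 and its partner GCN1 by 0.089. EIF2AK3, the kinase of the endoplasmic reticulum also called PERK, was at -0.017 and EIF2AK1 at -0.046, both turning above 0 after quantile normalization or cyclic loess, and EIF2AK2 was at -0.13. In all, 7 of 16 listed regulators were measured, 5 were lower and 2 higher (3 and 4 after those scalings), and 0 passed 1.2-fold in either direction.

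Interferon response genes are given beside WARS1 because interferon is known to induce it. All 7 measured of 21 listed were higher on the compound 1 array (6 of 7 after centring), as were 41.7% of measured genes, with a median of 0.15. MX2 reached the entry level on the compound 1 array alone (5.59 with the antagomir, 5.96 with compound 1), so the filter fixed its direction. With entry on both arrays 6 genes were measured, all higher. With no filter 9 of 11 were higher and 2 lower. ISG15, a ubiquitin-like modifier (0.41), OASL (0.40) and MX2 (0.37) were past 1.2-fold, as were 6.2% of measured genes in that direction. The level bin of MX2 had a median of 0.062 with a robust SD of 0.20, and that of OASL -0.016 with 0.18. IRF1, the transcription factor through which interferon gamma acts on many genes, was at 6.91 with the antagomir and 7.06 with compound 1 (log2 difference 0.15). WARS1 was chosen for its negative difference (-0.37 in its main cluster), so its direction against this list is not a result.

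Markers of the cell line were present. Of 8 listed for MDA-MB-231, 5 were measured, AXL (12.78 on the antagomir array), MSN (12.31), EGFR (11.02), VIM (10.61) and CD44 (9.08), with differences of -0.13 to 0.020; S100A4 was under the entry level and 2 had no named cluster. Of 8 luminal breast markers the hormone receptor genes ESR1 and PGR were under the entry level. KRT19 (9.04 on the antagomir array, close to CD44), GATA3 (7.27), TFF1 (7.03) and FOXA1 (5.41) entered, with differences of -0.29 to 0.25. FOXA1, with the highest difference, reached the entry level on the compound 1 array alone. With entry on both arrays the highest difference was 0.17. Of 5 leukocyte and 6 fibroblast markers, the 1 and 2 with a named cluster were under the entry level. Of 12 listed hypoxia targets 7 were measured, and all were lower on the compound 1 array, with a median of -0.24, beside 57.2% lower and a median of -0.035 over all measured genes. Their part in the differences of the 4 genes was not tested. In these pooled samples, fewer cells with a transcript and less of it per cell cannot be told apart.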

How the data were processed

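Each array's RNA was extracted with a column kit and labelled with biotin from 5 µg of total RNA, per the labels' protocols. The authors deposited 1 log2 value per cluster and array; for their background correction and normalization, the steps are not stated in those protocols. Of 53617 clusters, 16098 have 1 gene symbol in the platform table, 0 several, and 37519 are unnamed here. Symbols were checked by gene identifier in RefSeq (GRCh38.p14), and 0 changed. The deposited values were used without rescaling. Clusters were kept where the higher of their values was at least 5.60, the 50th percentile of mean levels; of several kept clusters of a gene, the brightest by mean stood for it. The depth of an array is its number of clusters; the number of arrays, 1 per treatment, limits the precision, and no test or p-value was made. The members and lists, the threshold of 1.2-fold and the divisions of the synthetases were chosen with earlier results of these data known.

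Named genes are the 4 members, listed genes past 1.2-fold or else the highest and lowest of their list, the nearest genes by difference, and neighbours in order. Genes named outside this rule, among them PHGDH, PSPH, SHMT2, MTHFD1L, ASNS, CTH, PYCR1, TRIB3, DDIT3, ATF4, GCN1, EIF2AK1, EIF2AK3, IRF1, AIMP1, and the synthetases nearest to 0, were chosen for their roles or after their values were seen. Medians were recovered on simulated differences, which had the same spread at every level and no level trend. Counts past 1.2-fold were not checked this way. Analyses used Python 3.11.15 with numpy 2.4.6 and pandas 2.3.3, and R 4.3.3 with limma 3.58.1 for quantile normalization and cyclic loess.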

Additional observations from a re-analysis of the deposited data

How the results depend on the processing

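Alternatives were centring, quantile normalization, cyclic loess, no filter, entry at the 75th percentile of level, entry on both arrays, the mean of entering clusters, each cluster alone, and 1.5-fold in place of 1.2-fold. The divisions of the synthetases, the set without the members, the interferon motif and the search with 1 letter off were added after seeing the data. The difference of each of the 4 genes kept its direction in the first 7 and moved by less than 1 robust SD of genes at its level; filters and cluster means could not change these values. The second WARS1 cluster alone reversed that gene's difference, to 0.19, at a level under the entry. The number of synthetases lower by 1.2-fold went from 7 to 1 after quantile normalization and to 1 after cyclic loess, and the number of members from 4 to 2. At 1.5-fold the numbers were 0 for synthetases and 0 for serine synthesis. The median of all measured genes moved from -0.035 to 0.0054 after quantile normalization, to -0.0033 after cyclic loess and to -0.064 after centring. No paired analysis was possible because the groups hold only 1 array each.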
